A study of Gallus gallus with 2 samples.

Results

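Fibroblast growth factor (FGF) signalling genes and the genes of the kinases and phosphatases downstream of it were compared between 2 arrays of chicken neural tube cells. The set held all chicken probe sets whose single gene symbol in the platform annotation begins with FGF, SPRY, SPRED, ETV or DUSP, or is MAPK or MAP2K followed by digits only. It comprised 158 of 37693 chicken probe sets, which stand for 78 of 13008 genes. Membership rests on names alone, so 3 genes came in by prefix only: FGFR1OP, which encodes a centrosomal protein, FGFR1OP2, and SPRYD7, whose SPRY domain is unrelated to Sprouty proteins.

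The control array carried RNA of neural tube cells that had received the empty plasmid pSuper-neo-GFP. The knockdown array carried RNA of cells that had received pSuper-neo-GFP-Sox4-shRNA and pSuper-neo-GFP-Sox11-shRNA together, 2 plasmids for short hairpin RNAs against the transcription factor genes Sox4 and Sox11. The labels name no other genotype or agent for either group. Embryos were electroporated on both sides at Hamburger-Hamilton stage (HH) 9 and collected at HH11, and in both only GFP-positive sorted cells were used. The labels also give 2 days at 37.5 °C between these stages, which does not obviously go with HH11, so the stage is uncertain. Each group was 1 array. The control plasmid had no hairpin by its label, and how many embryos went into a sample is not stated in the labels. With no replicates there was no test, and "higher" and "lower" describe these 2 arrays only.

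Secreted FGFs bind receptor tyrosine kinases of the FGFR family, which act through Ras and a cascade of MAP kinase kinases and MAP kinases. The cascade switches on ETS transcription factors of the ETV1, ETV4 and ETV5 group, and also its own inhibitors: Sprouty and Spred proteins, which act near Ras, and dual-specificity phosphatases such as DUSP6, which remove the activating phosphates from MAP kinases. In the early chick embryo, FGF signals from the tail end keep the caudal neural plate undifferentiated, and neurons form where that influence ends. Parallel cascades with their own kinases lead to the stress-activated JNK and p38 kinases and are served by other members of the MAP2K, MAPK and DUSP families.

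A gene was represented by its probe set of highest mean log2 signal and was called measured when that mean reached the median over chicken probe sets, a signal of 118. Of the 78 genes, 51 were measured. As background served the 95th percentile of viral probe sets, at 63.6 (control) and 65.8 (knockdown). The ratio of 3' to 5' signal was 5.45 in the control and 1.85 in the knockdown for actin, 2.92 and 1.5 for EF1A, and 1.25 and 1.05 for GAPDH. Each of these ratios, which depend on RNA quality and labelling, was higher in the control. With 1 array per group, this difference cannot be told apart from the knockdown, and its part in the values below was not tested. SOX4 and SOX11 were lower on the knockdown array, by log2 ratios of -1.06 and -0.71. All 12 neural progenitor markers were measured, with summed signals of 213097 (control) and 193621 (knockdown), so defining markers of the labelled tissue were present on both arrays. They did not go one way: SOX2 (log2 ratio 0.76) and LIN28B (1.39) were at least 1.5-fold higher, SOX1 (-0.77) was lower, and 9 lay within 1.5-fold. Of 13 measured neuronal markers, 10 were at least 1.5-fold lower on the knockdown array (summed signals 121263 and 67715, GAP43 below background on both). Genes listed as markers of cells outside the neural tube were more often higher than lower on that array. The lists are not exclusive: PAX3, PAX7, SHH and FOXA2 are also expressed in the neural tube. SOX17 stands on both the endothelial and the endoderm list. At least 1.5-fold higher were 6 of 8 measured blood genes (summed signals 36890 and 76632) and 8 of 12 endothelial genes (2904 and 5021). So were 6 of 11 genes of somite and skeletal muscle (7485 and 15853) and 5 of 5 heart genes (of 10 on the array, 1536 and 6016). The same held for 6 of 10 genes of notochord and endoderm (3801 and 5901) and 3 of 9 surface ectoderm genes (9349 and 12358). NOG, of the notochord list, was the only measured gene of these lists at least 1.5-fold lower (log2 ratio -0.70), and 6 of the 9 ectoderm genes lay within 1.5-fold. Among the genes counted as higher, SLC4A1, KDR, TEK, TIE1, MYF5, MYL2, MYL3 and NOTO were under a signal of 118 in the control. They reached the filter only through the knockdown array, and MYL2 was below background in the control. At or below background on both arrays were NKX2-5 and TBX5 of the heart list, ESRP1 and TFAP2C of the ectoderm list, RHAG of blood and FOXA1 of endoderm. None of the 9 reference genes passed 1.5-fold. In bulk RNA, fewer cells of a type and less RNA per cell cannot be told apart, and the part of these differences in the values below was not tested.

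Most FGF and MAP kinase genes had near-equal signals on both arrays. Of the 51 measured genes, 41 differed by less than 1.5-fold, while 7 on the knockdown array exceeded the control by 1.5-fold or more and 3 fell short of it by as much. The 7 were FGF2, FGF12, SPRED2, MAP2K5, MAP2K6, DUSP7 and DUSP19. The 3 were MAPK11, DUSP21 and DUSP22. Over all 9303 measured genes, the same limit was passed upwards by 11.4% and downwards by 5.71%, and the members' shares of 13.7% and 5.88% were near these. Counted by probe set, 15 of 83 measured member probe sets (18.1%) passed it upwards and 9 (10.8%) downwards, beside 16.9% and 5.45% of all measured probe sets. The downward share was thus near that of all features by gene and above it by probe set, a difference that was not tested. Past 2-fold lay 3 members higher and 1 lower, beside 3.64% and 1.06% of all measured genes. The median log2 ratio of the 51 was -0.005 (95% order-statistic interval over genes -0.11 to 0.15), and that of all measured genes 0.02. The split of calls depended on the scaling: 5 were higher and 6 lower after median centring, 5 and 5 after quantile normalization, and 6 and 5 after loess centring. The split over all measured genes moved as well. It was 5.94% higher and 14.9% lower after median centring, 7.76% and 8.13% after quantile normalization, and 8.03% and 7.80% after loess centring.

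**Figure D1:**
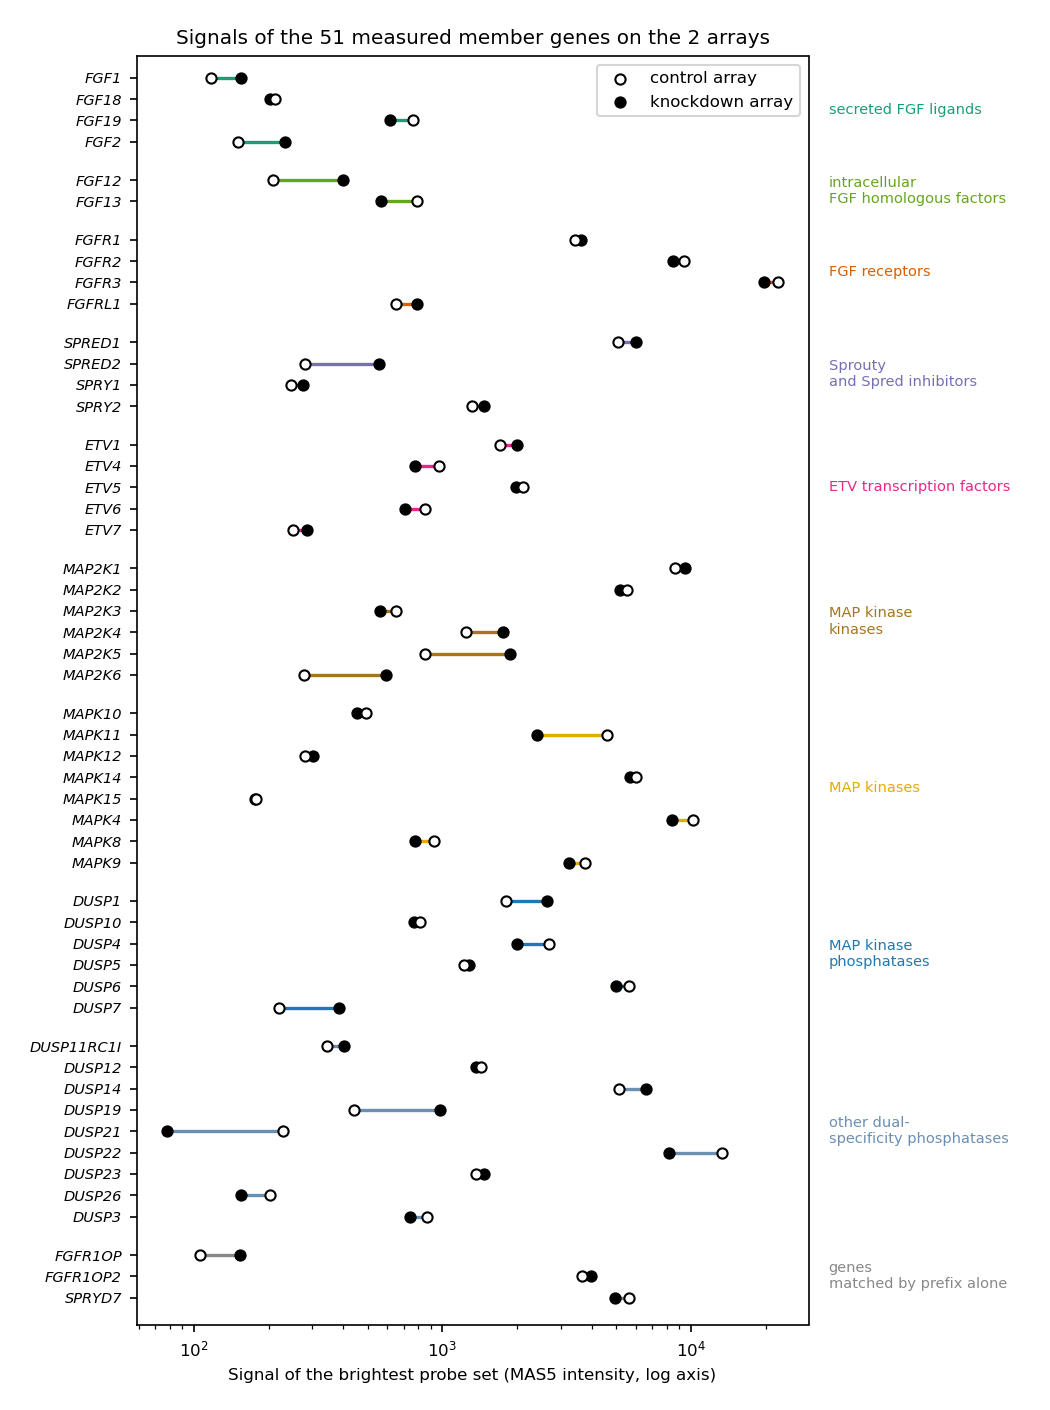
Signal of the brightest probe set (log axis) of each of the 51 measured member genes, grouped by role, with the control array as open and the knockdown array as filled circles; distances are to be read within a gene, since probe sets differ in brightness for the same amount of RNA. Long lines mark SPRED2, MAP2K5, MAP2K6, MAPK11, DUSP19 and DUSP21, while FGFR1, SPRY2, ETV5 and DUSP5 have circles that touch or overlap.

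Of the 15 genes of secreted FGF ligands, 4 were measured, and 8 lay at or below background on both arrays (FGF5, FGF6, FGF7, FGF9, FGF10, FGF16, FGF20 and FGF23). FGF19, a ligand of the FGF15/19 group made in the early chick neural tube and head, read 763 on the control and 618 on the knockdown array (log2 ratio -0.30). FGF18 had 211 and 202 (log2 ratio -0.06). Both were thus slightly lower on the knockdown array and within 1.5-fold. FGF2, which lacks a classical secretion signal and leaves cells by another route, had 151 and 232 (log2 ratio 0.62). FGF1, which shares this trait, had 117 and 155 (log2 ratio 0.41). FGF2 was the only ligand gene past 1.5-fold among these 4, and it fell back within 1.5-fold under all 3 other scalings, with log2 ratios of 0.37 to 0.38.

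FGF8, FGF3 and FGF4, ligands of the tail end of the embryo, stood below the filter on signal; they are described because of that known role, and their values had been seen when they were chosen. FGF8 had 51.4 in the control, below background, and 135.5 in the knockdown, at least 2.13-fold higher. FGF4 had 13.3 and 113, at least 1.78-fold higher. FGF3 went the other way in its brighter probe set, with 95.7 and 71.4 (log2 ratio -0.42), while its other probe set had 54 in the control, below background, and 78 in the knockdown, at least 1.23-fold higher. In the RefSeq gene table FGF19, FGF4 and FGF3 follow each other with no other protein-coding gene between them, and these neighbours differed in direction. Such changes of side were common for dim probe sets: 7.51% of all chicken probe sets were above background on the knockdown array only and 4.55% on the control array only. Of the member probe sets it was 6.96% (11 of 158) and 1.90% (3 of 158).

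The FGF homologous factors FGF12, FGF13 and FGF14 stay inside the cell, where they bind voltage-gated sodium channels. FGF12 read 209 on the control and 397 on the knockdown array (log2 ratio 0.93). FGF13, which in mice also binds microtubules in neurons, had 789 and 568 (log2 ratio -0.47), and it passed 1.5-fold lower under median centring (-0.72), quantile normalization (-0.602) and loess centring (-0.600). In their brightest probe sets, the 2 measured genes of this small group were therefore on opposite sides of 0. A dimmer probe set of FGF13, under the filter and just above background in the control, had 64.2 and 82.2 (log2 ratio 0.36). FGF14 was below background in the control (2.5) and at 95.9 in the knockdown, at least 1.51-fold higher. Of the FGF binding proteins, FGFBP1 was below background on both arrays, and FGFBP2 had 99.5 and 108 (log2 ratio 0.12), under the filter.

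Receptor genes FGFR1, FGFR2 and FGFR3 had near-equal signals in their brightest probe sets. FGFR1 read 3407 on the control and 3634 on the knockdown array (log2 ratio 0.09). FGFR2 had 9423 and 8489 (log2 ratio -0.15), and its second probe set, 7184 and 6628, gave -0.12. FGFR3 had 22443 and 19696 (log2 ratio -0.19). FGFRL1, a receptor-like protein without a kinase domain, had 652 and 794 (log2 ratio 0.29), and FGFR4 was below background on both arrays (15.1 and 20.1). All 4 measured receptor genes were within 1.5-fold.

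The dimmer probe sets of these receptors did not give the same picture. For FGFR3, one further probe set had 10652 and 6305 (log2 ratio -0.76), another had 3988 and 1762 (log2 ratio -1.18), and a dim one had 169 and 174 (0.04). The 2 lower ones had signals far above background on both arrays, and the brightest lay between them and 0. For FGFR2, a probe set with 618 and 337 was lower (log2 ratio -0.88) and one with 241 and 494 was higher (1.04), which made FGFR2 the only member gene with measured probe sets at least 1.5-fold apart from 0 on both sides. Among all 3853 genes with several measured probe sets, 2.31% were split in this way. Whether these probe sets read different transcripts was not tested.

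Sprouty and Spred genes, whose products restrain the signal between receptor and kinase cascade, were level or higher as deposited. SPRY2, which FGF signals induce, read 1321 on the control and 1470 on the knockdown array (log2 ratio 0.15). SPRY1 had 246 and 274 (log2 ratio 0.16). SPRY3 was below background on both arrays, and SPRY4 reached 69.7 on the knockdown array against 26.5 in the control, at least 1.10-fold higher. SPRED1, which recruits neurofibromin to restrain Ras, had 5091 and 6030 (log2 ratio 0.24), but a dimmer probe set had 269 and 748 (1.48). SPRED2 had 281 and 558 (log2 ratio 0.99). All 4 measured genes of the group were above 0, beside 52.1% of all measured genes, and 1 of them passed 1.5-fold. This direction turned with the scaling: 3 of the 4 were below 0 after median centring, and SPRY1 was also below 0 after quantile normalization (-0.10) and loess centring (-0.065).

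SPRED2 was also read by 2 brighter probe sets that the annotation assigns to SPRED2 and TNRC6A together and that are therefore no members. They had 4635 and 5035 (log2 ratio 0.12) and 3229 and 3699 (0.20). These were close to level, unlike the brightest probe set assigned to SPRED2 alone. Another probe set assigned to SPRED2 alone, under the filter, had 84.4 and 96.2 (log2 ratio 0.19).

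ETV genes, which include the transcription factors most used as readouts of FGF signalling, were all within 1.5-fold where measured. ETV4 read 974 on the control and 773 on the knockdown array (log2 ratio -0.33). ETV5 had 2121 and 1985 (log2 ratio -0.10), with -0.65 for its second probe set (1875 and 1197) and -0.01 for another (589 and 585). ETV1 had 1715 and 1993 (log2 ratio 0.22). Within this closely related trio, 2 genes were thus slightly lower and 1 slightly higher. ETV6, a repressor, had 852 and 709 (log2 ratio -0.27), and its other measured probe set gave -0.47. ETV7, its relative, had 251 and 287 (log2 ratio 0.19). ETV3 fell just under the filter, with 147 and 75.2 (log2 ratio -0.96) and a second probe set at 114 and 76.4 (-0.58).

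DUSP6, the phosphatase of extracellular signal-regulated kinases that FGF signals induce, read 5668 on the control and 5024 on the knockdown array (log2 ratio -0.17). DUSP5, a nuclear phosphatase of the same kinases, had 1224 and 1285 (log2 ratio 0.07). DUSP4, nuclear too, had 2689 and 2004 (log2 ratio -0.42), and its second measured probe set, 1101 and 769, gave -0.52. DUSP4 was thus lower in both probe sets without reaching 1.5-fold, which it passed under median centring only (-0.67). DUSP1, an immediate early gene induced by stress and growth factors, had 1813 and 2647 (log2 ratio 0.55). DUSP10, which acts on JNK and p38 kinases, had 815 and 772 (log2 ratio -0.08).

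DUSP7, a cytoplasmic relative of DUSP6, was the only measured gene of the 6 MAP kinase phosphatases past 1.5-fold, at 220 on the control and 384 on the knockdown array (log2 ratio 0.80). A dimmer probe set of DUSP7 was below background in the control (16.5) and at 157 in the knockdown, at least 2.46-fold higher. After median centring and quantile normalization its log2 ratio was 0.56 and 0.55, within 1.5-fold. DUSP8 and DUSP16, phosphatases of JNK and p38 kinases, were not measured in their brightest probe sets. For DUSP8 the brightest had 82.5 and 74.5 (log2 ratio -0.15). A second probe set of DUSP8 read 172 on the control and 29 on the knockdown array, below background, at least 2.62-fold lower. Its remaining probe set was below background on both arrays (11.1 and 30.2).

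The 6 MAP kinase kinase genes were all measured, and 2 of them, MAP2K5 and MAP2K6, were past 2-fold higher, as was DUSP19. Of all measured genes, 3.64% were at least 2-fold higher. MAP2K1 and MAP2K2, the activators of extracellular signal-regulated kinases, were level, with 8633 and 9448 (log2 ratio 0.13) and 5521 and 5209 (-0.08). MAP2K3, an activator of p38 kinases, had 653 and 560 (log2 ratio -0.22), and its second measured probe set gave -0.21. MAP2K6, which activates the same kinases, read 279 on the control and 592 on the knockdown array (log2 ratio 1.09). Its other probe set had 203 and 443 (log2 ratio 1.13), so both probe sets of MAP2K6 were higher by nearly the same ratio. MAP2K4, an activator of JNK and p38 kinases, had 1242 and 1762 (log2 ratio 0.51) and, in a second probe set, 257 and 544 (1.08).

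MAP2K5, the activator of the large MAP kinase ERK5, read 854 on the control and 1873 on the knockdown array (log2 ratio 1.13). Its 2 other measured probe sets had 853 and 1488 (log2 ratio 0.80) and 1083 and 1201 (0.15). All 3 were above 0, but the size of the difference depended on the probe set, and the 2 higher ones have names ending in _s_at, the mark for probes shared by several transcripts. Under the filter, 2 further probe sets of MAP2K5 were below background in the control. They had 23.3 and 201 (at least 3.17-fold higher) and 28.1 and 80.9 (at least 1.27-fold higher). A probe set assigned to MAP2K5 and C15orf61 together, which is no member, had 170 and 126 (log2 ratio -0.44). A dimmer probe set of MAP2K1 was at 280 and 987 (1.82), far from its brightest.

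Of the 8 measured MAP kinase genes, 7 were below 0, beside 47.9% of all measured genes, and 1 was past 1.5-fold. With the mean of measured probe sets 4 of the 8 were below 0 and 0 past 1.5-fold. The gene past 1.5-fold in its brightest probe set was MAPK11, the beta form of p38, at 4599 on the control and 2397 on the knockdown array (log2 ratio -0.94). Its second measured probe set was level, with 432 and 426 (-0.02), and the mean of both was -0.48, within 1.5-fold. MAPK14, the alpha form of p38 and the one found in most cells, had 6011 and 5676 (log2 ratio -0.08). MAPK12, the gamma form and the gene next to MAPK11 in the RefSeq table, had 279 and 300 (log2 ratio 0.11), with further probe sets from -0.81 to 0.56. MAPK13, the delta form, was below background on both arrays.

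JNK genes were close to level in their brightest probe sets. MAPK8 read 928 on the control and 773 on the knockdown array (log2 ratio -0.26), while its other measured probe sets gave 0.46 and -0.02. MAPK9 had 3752 and 3237 (log2 ratio -0.21). MAPK10, the JNK gene of neurons, had 492 and 455 (log2 ratio -0.11), and its second measured probe set, with 283 and 161, gave -0.81. The remaining MAP kinases are of the atypical kind. For MAPK4 the RefSeq table also lists the symbol MAPK6, and which of these names fits the probe sets was not tested. MAPK4 had 10217 and 8376 (log2 ratio -0.29) and, in a second probe set, 5515 and 4715 (-0.23). Its dimmer probe sets went the other way, with 219 and 351 (log2 ratio 0.68) and 116 and 159 (0.45). MAPK15 had 178 and 177 (log2 ratio -0.005).

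Dual-specificity phosphatases outside the MAP kinase phosphatase group spanned log2 ratios from -1.55 to 1.15. Of 9 measured genes, 2 were at least 1.5-fold lower and 1 higher, beside 5.71% and 11.4% of all measured genes. DUSP22, which acts on JNK signalling, read 13421 on the control and 8198 on the knockdown array (log2 ratio -0.71). Its dimmer probe set had 124 and 137 (log2 ratio 0.15), and with the mean of both, -0.28, DUSP22 lay within 1.5-fold. Among measured genes of like brightness, in group 9 of 10 from the dimmest, 4.30% were at least 1.5-fold lower. DUSP21 had 229 and 78 (log2 ratio -1.55, 2.93-fold), the largest size among the 51, from 1 probe set near background on the knockdown array. This probe set reached the filter only through the control array. DUSP19, which acts on JNK signalling, had 441 and 978 (log2 ratio 1.15), also from 1 probe set.

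The remaining 6 measured genes of this group were DUSP3, DUSP12, DUSP14, DUSP23, DUSP26 and the gene listed as DUSP11RC1I. DUSP14 read 5166 on the control and 6585 on the knockdown array (log2 ratio 0.35). DUSP26, a phosphatase of the nervous system, had 202 and 154 (log2 ratio -0.39), whereas its other measured probe set had 65.4 and 217 (1.73). DUSP26 therefore changed direction with the probe set. The 65.4 lay just above the control background of 63.6, and this probe set only just reached the filter. The size of its ratio is therefore uncertain. DUSP3, DUSP12, DUSP23 and DUSP11RC1I lay between -0.23 and 0.23. The genes DUSP13, DUSP27 and DUSP29, of which DUSP13 and DUSP29 are neighbours, are expressed in skeletal muscle in mammals. DUSP13 and DUSP27 were below background on both arrays, and DUSP29 had 49.7 and 67.4, at least 1.06-fold higher.

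**Figure D2:**
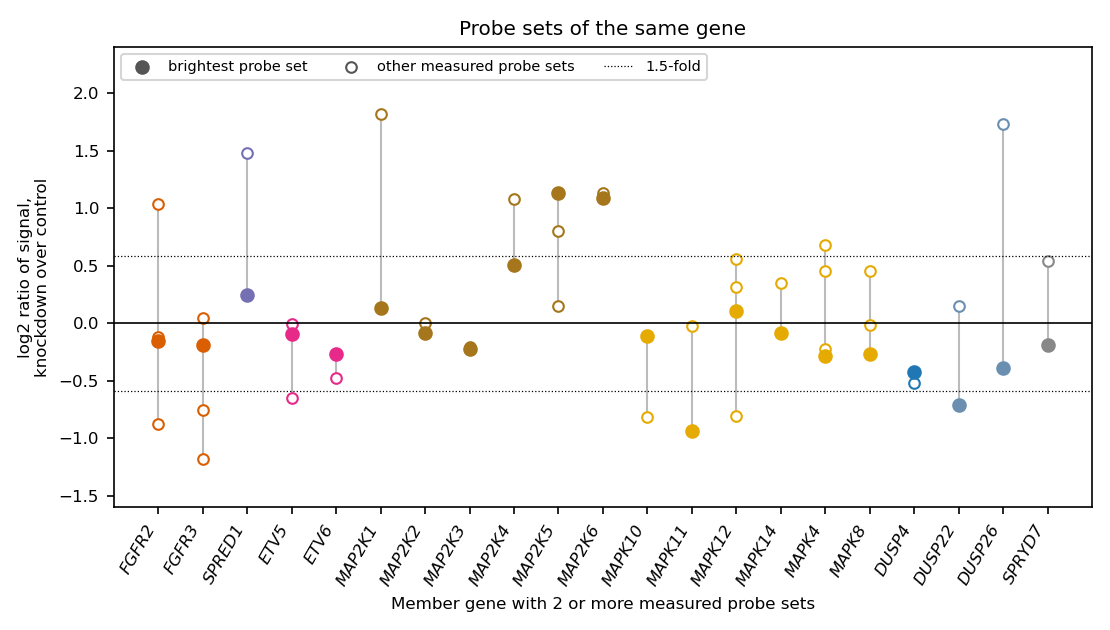
Log2 ratio of signal, knockdown over control, of every measured probe set of the 21 member genes that have 2 or more, with the brightest probe set filled, the others open and 1.5-fold dotted. MAP2K3, MAP2K6 and DUSP4 have probe sets that lie together, while those of MAP2K1, DUSP26 and FGFR2 are 1.69, 2.12 and 1.91 apart. The higher probe set of DUSP26 was near background on the control array.

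Agreement between probe sets sets the scale on which single values can be read. Over the 3853 genes with several measured probe sets, the log2 ratios of the brightest and second brightest differed by a median of 0.38, and in 10% of the genes by more than 1.05. For the 21 member genes with several, that median was 0.57. All measured probe sets lay on 1 side of 0 in 11 of the 21, beside 46.9% of all such genes. In 14 of the 21 the mean of the dimmer probe sets was above the brightest, beside 72.2% of all such genes. Of the 10 members past 1.5-fold, 4 have several measured probe sets (MAP2K5, MAP2K6, MAPK11 and DUSP22), and in MAP2K6 alone all of them passed 1.5-fold.

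Brightness went with direction over the whole array. Among the dimmest 3 of 10 equal groups of measured genes, 24.5% passed 1.5-fold upwards and 7.09% downwards, and among the other 7 groups 5.77% and 5.11%. Of the 51 members, 16 lay in the dimmest 3 groups, with 5 higher and 1 lower, and 35 in the others, with 2 higher and 2 lower. The 5 were FGF2, FGF12, DUSP7, SPRED2 and MAP2K6. DUSP19 and MAP2K5 lay in groups 4 and 5, counted from the dimmest, in which 14.1% and 7.52% of all measured genes were at least 1.5-fold higher. MAPK11 lay in group 7, in which 5.59% were at least 1.5-fold lower.

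**Figure D3:**
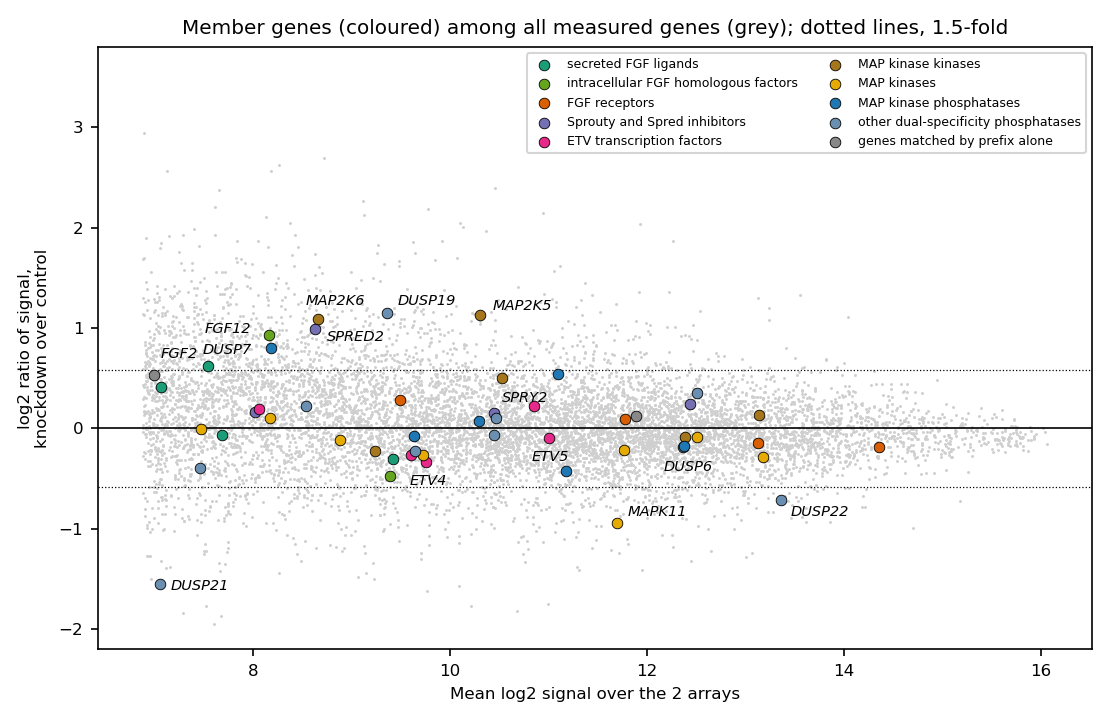
Log2 ratio of signal, knockdown over control, against mean log2 signal for all 9303 measured genes (grey) and the 51 measured members (coloured by role), with 1.5-fold dotted. FGF2, FGF12, DUSP7, SPRED2 and MAP2K6 lie at the dim end where the grey cloud extends upwards, and DUSP6, SPRY2, ETV4 and ETV5 lie near 0.

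The other genes of the pathway, 75 genes from receptor adaptors and heparan sulphate enzymes to nuclear targets, had a median near 0 as well. Of these, 68 had a probe set and 50 were measured. Past 1.5-fold lay 5 upwards and 5 downwards (10% each), beside 11.4% and 5.71% of all measured genes, and the median log2 ratio was 0.02 (order-statistic interval -0.11 to 0.20). The downward share was thus above that of all measured genes, a difference that was not tested. Of the 5 higher genes, SOS1 and RPS6KA5 were under a signal of 118 in the control. They reached the filter only through the knockdown array. Among the genes between receptor and kinase cascade, NRAS, a Ras gene, read 1420 on the control and 3278 on the knockdown array (log2 ratio 1.21). SOS1, which loads Ras with GTP, had 112 and 186 (log2 ratio 0.74). PLCG1, the phospholipase bound by FGF receptors, had 6449 and 4246 (log2 ratio -0.60). These 3 genes did not share a direction.

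AKT1, the kinase of the parallel PI3 kinase branch, read 1007 on the control and 1966 on the knockdown array (log2 ratio 0.97), and RPS6KA5, a kinase activated by MAP kinases, had 108 and 182 (0.75). EGR1, an immediate early target of the ERK cascade, had 3518 and 7067 (log2 ratio 1.01), while FOS was below background in the control and at 74.1 in the knockdown, at least 1.17-fold higher. Heparan sulphate, which presents FGFs to their receptors, is carried and modified by products of several of these genes. Those past 1.5-fold were lower on the knockdown array, while those within it lay on both sides of 0. SDC3, a syndecan of neurons, had 1522 and 820 (log2 ratio -0.89), HS6ST2, a sulphotransferase, had 7749 and 4872 (-0.67), and the glypican gene GPC1 had 10132 and 6483 (-0.64). NDST1, under the filter, had 99.7 in the control and 47.1 in the knockdown, below background, at least 1.52-fold lower. Within 1.5-fold were, among others, HS6ST1 (log2 ratio -0.006), HS2ST1 (0.24), EXT2 (0.39) and GPC4 (0.40).

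Caudal genes known to depend on FGF signals did not go one way. CDX2 read 423 on the control and 233 on the knockdown array (log2 ratio -0.86), and TBXT, which marks the tail end and the notochord, had 1341 and 1767 (0.40). CDX1 was below background in the control (6.2) and at 95.5 in the knockdown, at least 1.5-fold higher. TBX6 was below background in the control (34.3) and at 77.2 in the knockdown, at least 1.21-fold higher. CDX4 and MSGN1 were below background on both arrays. IL17RD, a membrane inhibitor of FGF receptors that is expressed with FGF8 in the embryo, had 677 and 777 (log2 ratio 0.20).

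**Figure D4:**
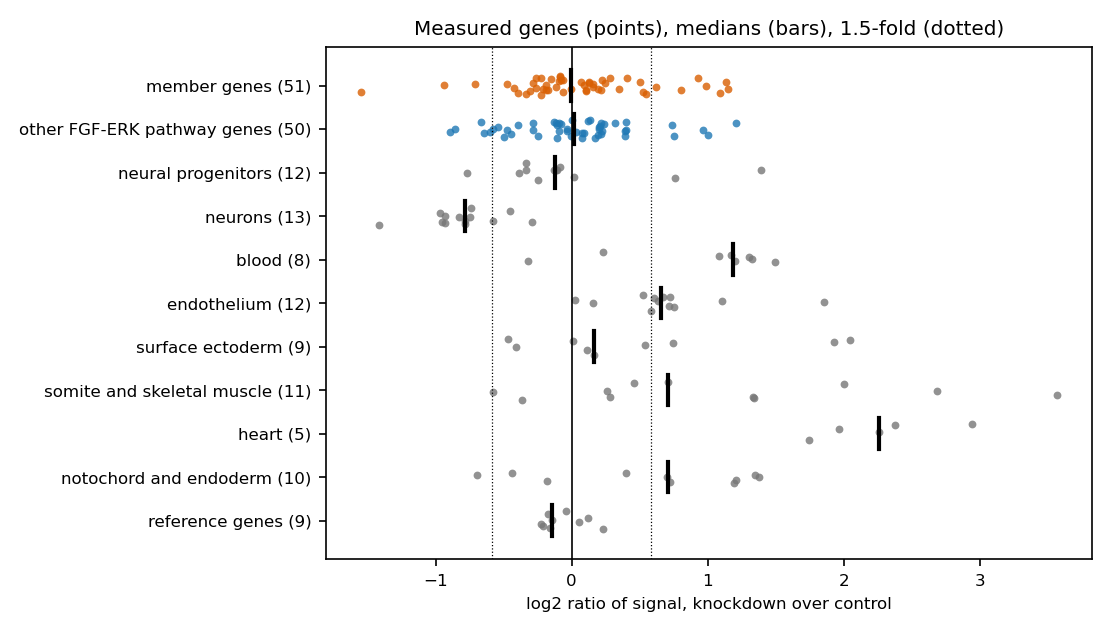
Log2 ratio of signal, knockdown over control, of the measured genes of each list (points, with the number of genes in brackets), the list's median (bar) and 1.5-fold (dotted). The 51 members and the 50 other pathway genes spread around 0, neuronal markers lie to the left, and blood, endothelial, muscle and heart markers lie mostly to the right.

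Between the lists, the FGF and MAP kinase members had a median near 0 (-0.005), the neuronal markers -0.78, the neural progenitor markers -0.12, and the blood markers 1.19. Median centring shifted all measured genes by -0.25 on the log2 scale, to a median of -0.23, and by its construction the members by the same amount, to -0.25. Under that scaling 5.94% of all measured genes passed 1.5-fold upwards and 14.9% downwards.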

How the data were processed

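The authors deposited 1 linear intensity per probe set and sample of an Affymetrix chicken array, for which the submitters' processing notes name MAS5 5.0. Per the labels' protocols, 100 ng of RNA went into biotin labelling. Without the top and bottom 2% of values, the mean was 999.9 on both arrays, so the deposited intensities had been scaled alike. A log2 was taken once, with no further scaling. Symbols came from the platform annotation: 27166 chicken probe sets had 1 symbol, 177 several and 10350 none. All 78 member symbols were the same in the RefSeq gene table of assembly GRCg7b. No sequences were used here.

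The design has 1 array per group, which limits the precision of every value and allows no test. Where 1 array was at or below background, a fold was computed against that array's background and is a lower bound. Intervals of a median are exact binomial order-statistic intervals over genes and cover the spread between genes only. Described in full were members past 1.5-fold, the measured ligands, receptors, inhibitors and ETV genes, and set examples of the kinases and phosphatases. The members, the pathway list and the marker lists were chosen with earlier results of these data known. Alternatives were 3 scalings (loess span 0.3), a floor at background, 2 filters, 2 probe set rules and updated symbols. The computation was tested on simulated data. Computation used Python 3.11.15, pandas 2.3.3, numpy 2.4.6 and statsmodels 0.14.6.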

Additional observations from a re-analysis of the deposited data

How the results depend on the processing

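Counts of members past 1.5-fold moved with the processing more than the medians did. The count of 3 lower members became 6 after median centring, 5 after quantile normalization, 5 after loess centring, 5 with no filter, 1 with the mean of a gene's measured probe sets and 9 when every measured probe set was counted. The count of 7 higher members became 21 with no filter, 1 with the filter at the 75th percentile, 11 with the mean of measured probe sets and 15 when every measured probe set was counted. Those settings with another filter or with every probe set counted 78, 27 and 83 features in place of 51. The shares over all genes moved with these settings too. At least 1.5-fold higher were 18.9% with no filter, 4.84% with the filter at the 75th percentile and 13.1% with the mean of measured probe sets. At least 1.5-fold lower were 10.4%, 4.98% and 4.13%. Of all measured probe sets, 16.9% were higher and 5.45% lower by that limit. Median centring moved the median log2 ratio of the members to -0.25 and that of the other pathway genes to -0.23, and it shifts all genes by construction. For the other changes the cause was not tested. A floor at background and updated symbols changed none of these counts. The next 2 settings were chosen after seeing the data. Without the 3 genes matched by prefix alone the counts were 7 and 3. Without probe sets ending in _s_at or _x_at they were 6 and 3, but 3 of the 10 calls were lost (MAP2K5 at 0.15, SPRED2 and MAPK11 with no measured probe set left) and 2 were new (ETV5 at -0.65, DUSP26 at 1.73). The new call of DUSP26 rests on a control signal near background. None of the 10 members past 1.5-fold changed direction under the alternatives that gave a single value per gene. Most of these kept the same brightest probe set, so they could hardly have reversed a call. Counted by single probe sets, DUSP22 also had a measured one above 0 (log2 ratio 0.15). FGF2, DUSP7, DUSP22 and MAPK11 came within 1.5-fold under other settings, as given above. No paired analysis was possible because each group has 1 array. Of 15 secreted ligand genes, signals at or below background left 8 with no fold and 2 with a bound.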
